A study of Homo sapiens with 21 samples.

Results

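The genes described here are 5 transcription factors of the epithelial-mesenchymal transition (EMT), *SNAI1*, *SNAI2*, *ZEB1*, *ZEB2* and *TWIST1*, and 5 intermediate filament genes, *VIM*, *KRT7*, *KRT8*, *KRT18* and *KRT19*. They were taken by symbol, 10 of the 23368 features of an mRNA count table, and all 10 passed the filter on low counts that left 12855 genes to test. The cells were HK-2, a human proximal tubule line immortalised with papillomavirus oncogenes, grown in serum-free keratinocyte medium with epidermal growth factor and pituitary extract in every group. For mRNA and miRNA sequencing, 4 libraries came from cells given 5 µg/mL cyclosporine A for 48 h, and 4 from cells given vehicle, 0.1% ethanol, for 48 h. Cyclosporine A is an immunosuppressant that blocks calcineurin, a phosphatase, once bound to a cyclophilin; its use is limited by damage to the kidney. For PAR-CLIP, which recovers RNA crosslinked to Argonaute, all cells were fed 100 µM 4-thiouridine and irradiated at 365 nm. An antibody to AGO2 was used on 2 samples after 24 h of cyclosporine A and 2 after 24 h of vehicle, and an antibody to all Argonaute proteins on 1 further sample, for which the labels give no treatment of its own.

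In EMT, epithelial cells lose E-cadherin junctions and take on features of mesenchymal cells. SNAI and ZEB proteins are zinc finger repressors that bind E-box sequences in promoters of epithelial genes, *CDH1* (E-cadherin) among them, and TWIST1 is a basic helix-loop-helix factor with a related role. Keratins are the intermediate filaments of epithelia and assemble from a type II partner (KRT7, KRT8) and a type I partner (KRT18, KRT19); vimentin, from *VIM*, is the filament of mesenchymal cells and is also present in many cultured and injured tubule cells.

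Total counts per mRNA library ran from 3965431 to 5001669 with cyclosporine A and from 4289120 to 7041604 with vehicle. No label says whether the libraries of a group were separate cultures, so the spread behind each p-value may be technical. Of 13 proximal tubule markers 5 passed the filter, with *PAX8* the most abundant, and *SLC22A6*, *SLC22A8* and *HNF4A* had no count in any library; these markers summed to 1261 to 1324 CPM with cyclosporine A and 1043 to 1117 CPM with vehicle. Distal and collecting tubule markers summed to 624 to 660 CPM with cyclosporine A and 1107 to 1245 CPM with vehicle, mostly *SCNN1A*, and podocyte markers to 92.5 to 107 CPM with cyclosporine A and 165 to 176 CPM with vehicle, mostly *SYNPO*. None of 6 endothelial markers passed. Fibroblast and pericyte markers summed to 113 to 135 CPM with cyclosporine A and 363 to 407 CPM with vehicle, *LUM* being the most abundant and *PDGFRA* at 0. Immune markers summed to 190.5 to 205 CPM with cyclosporine A and 138 to 171 CPM with vehicle, mostly *CD68*, with *PTPRC* and *CD3E* at 0. The part of such markers in the results was not tested. All libraries came from the HK-2 line. In these bulk samples, fewer cells that express a gene and less of its RNA per cell cannot be told apart.

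Both SNAI genes and both ZEB genes were higher with cyclosporine A, and so were 4 of the 5 filament genes. *SNAI2* stood out in size. *TWIST1* and *KRT7* did not pass the test, and none of the 10 genes fell. A call is a Benjamini-Hochberg adjusted p under 0.05 in edgeR's quasi-likelihood test over all 12855 genes. The 8 calls among 10 genes stand against a broad response: 66.9% of all tested genes were called, 33.3% as higher. The median log2 fold change (cyclosporine A over vehicle) was 0.44 over the 10 genes and -0.0022 over all tested genes. Levels are given as CPM, counts scaled to library size with TMM factors; they are not divided by gene length, so levels of different genes are not compared.

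**Figure D1:**
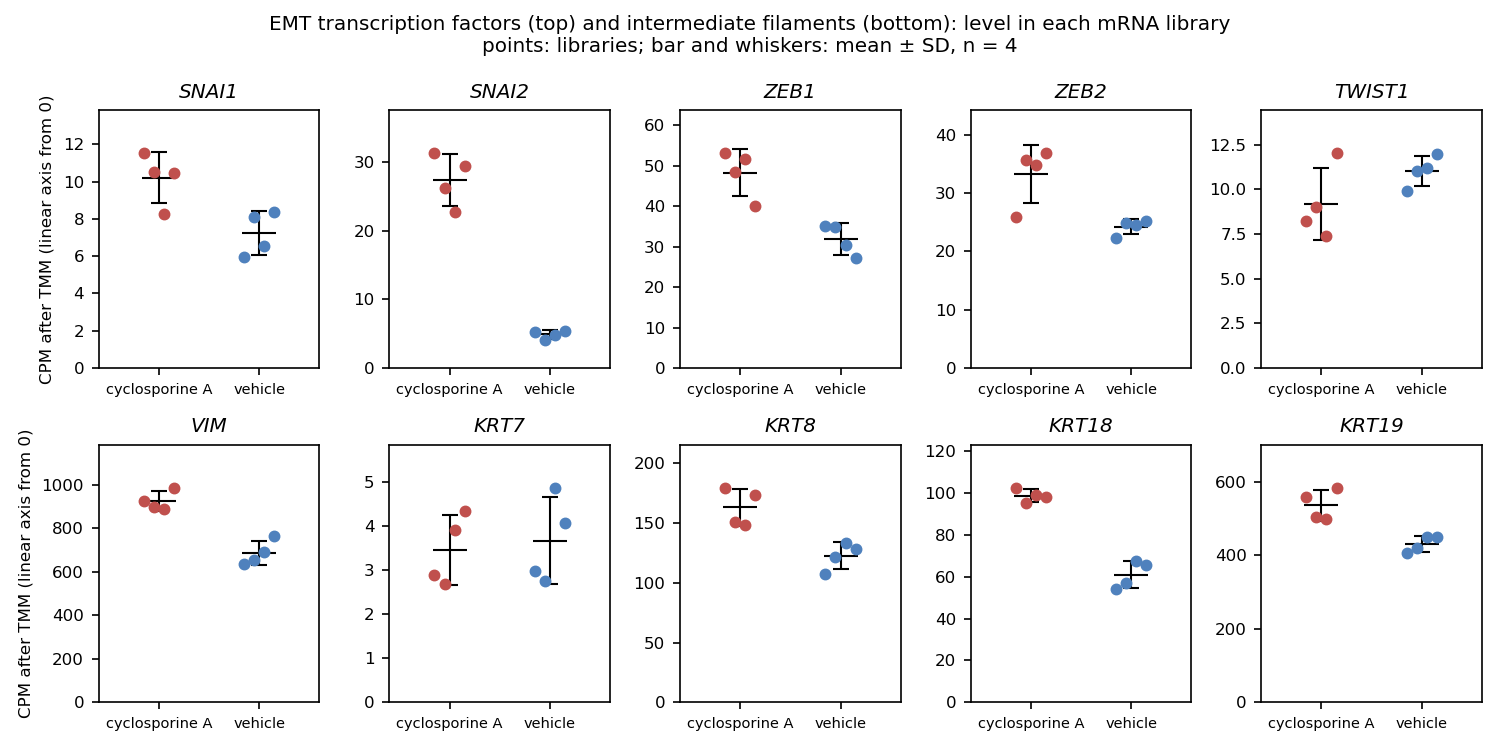
Level of each gene in CPM (vertical axes, linear from 0) in the 4 cyclosporine A and 4 vehicle libraries; points are libraries and bars with whiskers are mean ± SD. All cyclosporine A points lie above all vehicle points for *SNAI2*, *ZEB1*, *ZEB2*, *VIM*, *KRT8*, *KRT18* and *KRT19*, whereas the points of *SNAI1*, *TWIST1* and *KRT7* overlap.

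*SNAI2* encodes SLUG, a repressor of epithelial genes that acts in neural crest and wound edge cells. Its level was 31.3, 26.1, 22.8 and 29.4 CPM in cyclosporine A libraries 1 to 4, and 5.25, 4.05, 4.87 and 5.42 CPM in vehicle libraries 1 to 4. The lowest cyclosporine A library was thus well above the highest vehicle library. The log2 fold change was 2.48 ± 0.15 (SE; edgeR adjusted p = 6.38e-22), and 0.233% of all tested genes had a rise of this size or larger. The counts behind it were small, 99 to 152 per cyclosporine A library and 22 to 37 per vehicle library.

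*SNAI1*, the gene of SNAIL and the closest relative of *SNAI2* in the set, had 11.5, 10.5, 8.28 and 10.5 CPM with cyclosporine A and 5.96, 8.10, 6.56 and 8.35 CPM with vehicle. Cyclosporine A library 3 lay just below vehicle library 4, so the groups overlapped. The gene rose by 0.52 ± 0.17 on the log2 scale (edgeR adjusted p = 0.00629). *SNAI2* counts divided by *SNAI1* counts gave 2.49 to 2.80 in the cyclosporine A libraries and 0.50 to 0.881 in the vehicle libraries. By count, *SNAI2* was therefore above *SNAI1* in every cyclosporine A library and below it in every vehicle library. Counts are not divided by gene length, so this ratio is compared only between libraries.

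*ZEB1*, a repressor of *CDH1* and of the miR-200 genes, had 53.1, 48.4, 51.5 and 40.1 CPM with cyclosporine A and 35.2, 35.0, 30.5 and 27.1 CPM with vehicle. The groups did not overlap, and the log2 fold change was 0.59 ± 0.09 (edgeR adjusted p = 1.74e-07). *ZEB2*, its paralog, also known as a SMAD-interacting protein, had 25.9, 35.7, 34.7 and 36.8 CPM with cyclosporine A and 22.3, 24.8, 24.6 and 25.3 CPM with vehicle. Cyclosporine A library 1 was the lowest of its group and only slightly above the vehicle libraries. The log2 fold change of *ZEB2* was 0.46 ± 0.10 (edgeR adjusted p = 0.000120). *ZEB1-AS1*, the gene of an RNA read from the opposite strand beside *ZEB1* and looked at after its values were seen, went the other way, with 4.19 ± 1.33 CPM with cyclosporine A and 7.72 ± 0.803 CPM with vehicle (SD, n = 4 each; log2 fold change -0.89 ± 0.21). *ZEB2-AS1* had no count in any library. The sources used here do not say whether counting used the strand, and without it reads of overlapping genes cannot be told apart.

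*TWIST1* had 8.23, 9.04, 7.36 and 12.0 CPM with cyclosporine A and 9.93, 11.0, 11.2 and 12.0 CPM with vehicle. Cyclosporine A library 4 was as high as the highest vehicle library, while the other 3 lay below all vehicle libraries. The log2 fold change was -0.27 ± 0.16 and did not pass (edgeR adjusted p = 0.133); without cyclosporine A replicate 4 it was -0.41 and passed (edgeR adjusted p = 0.0341).

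The filament genes moved by less than 1 on the log2 scale. *VIM* had 925, 898, 886 and 986 CPM with cyclosporine A and 636, 654, 689 and 762 CPM with vehicle. The groups did not overlap, and the log2 fold change was 0.43 ± 0.06 (edgeR adjusted p = 4.52e-09). The fibroblast and pericyte marker sum given above was lower with cyclosporine A, and its relation to *VIM* was not tested. A change as large as that of *VIM* in either direction was found in 45.1% of tested genes.

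*KRT18*, the type I keratin of simple epithelia, had 102, 95.0, 98.7 and 98.2 CPM with cyclosporine A and 54.1, 56.9, 67.5 and 65.5 CPM with vehicle. All cyclosporine A libraries were above all vehicle libraries. Its log2 fold change, 0.71 ± 0.07 (edgeR adjusted p = 1.14e-12), had the highest value of the 5 filament genes. *KRT8*, its type II partner, had 180, 151, 148 and 173 CPM with cyclosporine A and 107, 122, 133 and 128 CPM with vehicle. The groups were again apart, by a smaller margin, with a log2 fold change of 0.42 ± 0.07 (edgeR adjusted p = 2.81e-07). *KRT19*, a type I keratin of ducts and simple epithelia, had 558, 505, 498 and 584 CPM with cyclosporine A and 407, 420, 450 and 450 CPM with vehicle. Its log2 fold change was 0.31 ± 0.06 (edgeR adjusted p = 5.15e-06). The gene name table used here lists 51 pseudogenes of *KRT8*, 67 of *KRT18* and 5 of *KRT19*, and reads can be split with such near copies, so the keratin levels are uncertain to that extent.

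*KRT7*, a type II keratin of ducts, was near the lower limit of the measurement, with 11 to 17 counts per cyclosporine A library and 15 to 23 per vehicle library. Its level was 2.88, 2.69, 3.91 and 4.35 CPM with cyclosporine A and 2.98, 2.76, 4.87 and 4.06 CPM with vehicle, with the groups interleaved. The log2 fold change was -0.06 ± 0.26 (edgeR adjusted p = 0.853), and its SE was the largest of the 10 genes.

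**Figure D2:**
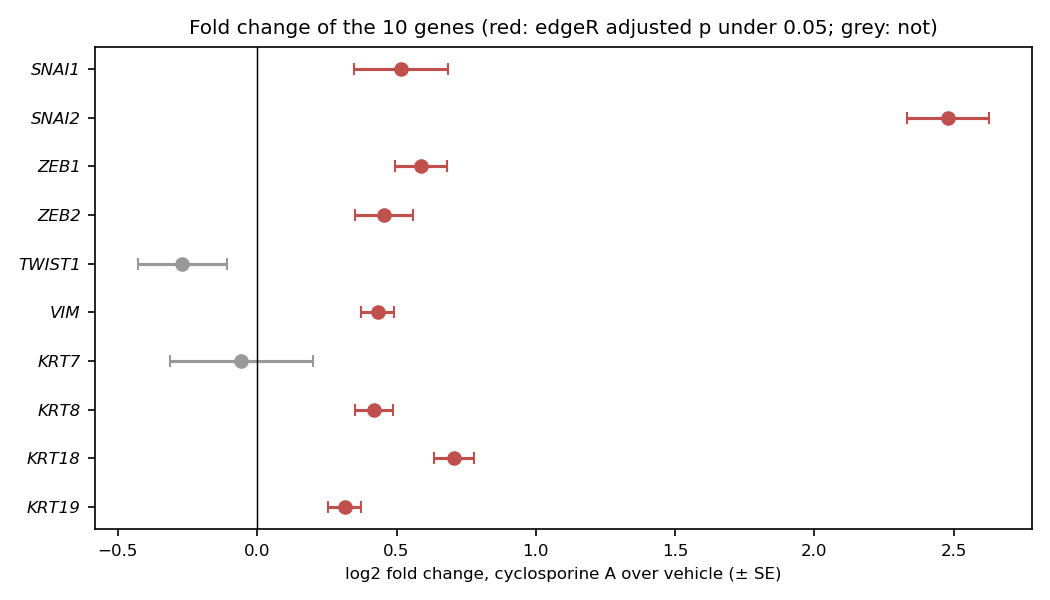
Log2 fold change of the 10 genes (horizontal axis, cyclosporine A over vehicle, with SE), in red where the edgeR adjusted p was under 0.05 and in grey otherwise. *SNAI2* at 2.48 stands apart from the other called genes, which lie between 0.31 and 0.71.

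For 7 of the 10 genes all 4 cyclosporine A libraries lay above all 4 vehicle libraries; over all tested genes, the groups were apart in either direction for 57.9%. In the authors' deposited table, 8 of the 10 genes had an adjusted p under 0.05, and all 8 were called here with the same sign. That table gave *SNAI1* an adjusted p of 0.0342 and *SNAI2* a log2 fold change of 2.39.

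Because KRT8 and KRT18 proteins pair, the ratio of their counts was compared within each library, which needs no scaling between libraries. It was 1.75, 1.59, 1.50 and 1.76 *KRT8* counts per *KRT18* count with cyclosporine A and 1.98, 2.14, 1.97 and 1.96 with vehicle. Every cyclosporine A library was below every vehicle library. The mean was 1.65 ± 0.128 with cyclosporine A and 2.01 ± 0.0850 with vehicle (SD, n = 4 each; two-sided exact permutation p = 0.0286, the smallest that 4 against 4 libraries can give). The partner keratins thus rose by unequal amounts. *VIM* made up 52.3% to 54.4% of the counts of the 5 filament genes with cyclosporine A and 51.2% to 54.1% with vehicle, ranges that overlap. *KRT19* made up 30.5% to 31.6% with cyclosporine A and 31.9% to 33.7% with vehicle, ranges that do not. Summed over the 5 genes, the level was 1635 to 1846 CPM with cyclosporine A and 1207 to 1409 CPM with vehicle.

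**Figure D3:**
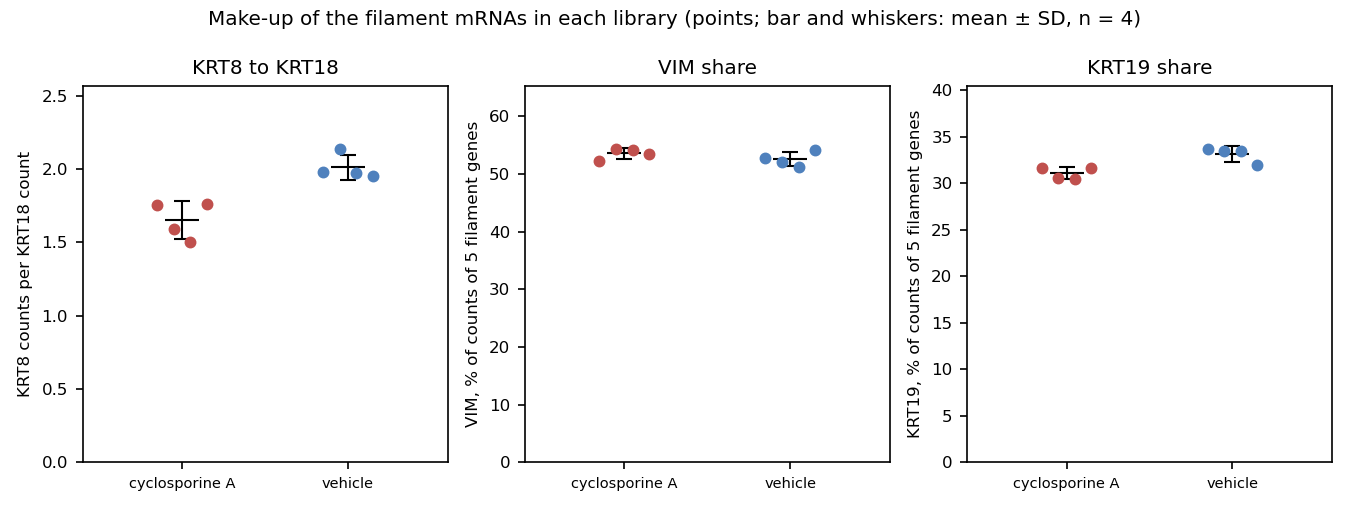
Ratio of *KRT8* to *KRT18* counts, and *VIM* and *KRT19* counts as a percent of the counts of the 5 filament genes (vertical axes from 0), in the 4 cyclosporine A and 4 vehicle libraries; bars with whiskers are mean ± SD. The ratio and the *KRT19* share are lower in every cyclosporine A library, and the *VIM* share overlaps.

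Genes whose libraries followed these genes most closely were found by the root mean square difference in log2 CPM, centred on the vehicle mean, over the 8 libraries. For *SNAI2* they were *DUSP10* (difference 0.12), a phosphatase of stress-activated kinases, *PLD6* (0.21) and *EPHA5* (0.22), with log2 fold changes of 2.50 ± 0.08, 2.56 ± 0.16 and 2.34 ± 0.18. The closest gene to *SNAI1* was *C12orf10*, to *ZEB1* *NIPA1*, to *ZEB2* *STAG3L4*, to *TWIST1* *PDCD7*, to *VIM* *USP10*, to *KRT7* *FAM96A*, to *KRT8* *PTGES3*, to *KRT18* *RPL27* and to *KRT19* *REXO1*, at differences of 0.02 to 0.10. The samples form 2 groups, so likeness mainly reflects a fold change of similar size.

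Of 21 listed genes that EMT factors are known to repress, 16 were tested, of which 7 fell (43.8%), 3 rose (18.8%) and 6 did not pass, with a median log2 fold change of -0.18. Over all tested genes 33.5% fell and 33.3% rose, and the 62.5% called in this list is close to the 66.9% called over all. *CDH1* had 9, 10, 3 and 5 counts with cyclosporine A and 67, 45, 39 and 39 counts with vehicle, groups that were far apart. Its level was 1.57 ± 0.753 CPM with cyclosporine A and 8.71 ± 0.586 CPM with vehicle (SD, n = 4 each), a log2 fold change of -2.46 ± 0.25 (edgeR adjusted p = 1.12e-12). *LLGL2*, a polarity gene (-2.41 ± 0.26), *MUC1*, a mucin of the apical surface (-1.77 ± 0.14), and *CLDN1*, a tight junction claudin (-0.59 ± 0.06), also fell. The genes that rose were *DSP* (0.46 ± 0.13), *ESRP1* (0.85 ± 0.26) and *MAL2* (0.63 ± 0.07), named after their values were seen.

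Of 19 listed mesenchymal genes, 11 were tested, of which 7 fell, 2 rose and 2 did not pass, with a median log2 fold change of -0.35; 63.6% fell here, against 33.5% of all tested genes. *SPARC*, a matrix glycoprotein, had 289 ± 5.17 CPM with cyclosporine A and 626 ± 30.3 CPM with vehicle (SD, n = 4 each). *COL1A1*, a fibrillar collagen chain, changed by -1.52 ± 0.17 and *CDH2* (N-cadherin) by -0.54 ± 0.06. *FN1* (fibronectin) had 40072 ± 2086 CPM with cyclosporine A and 40497 ± 2381 CPM with vehicle (SD, n = 4 each) and did not pass (log2 fold change -0.02 ± 0.07). *ACTA2*, smooth muscle actin, had 0 to 5 counts with cyclosporine A and 7 to 13 counts with vehicle and was not tested. The *CDH1* fall, the *VIM* rise and the *CDH2* fall were thus present in the same libraries.

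Other EMT factors were few. Of 15 listed, 5 were tested: 3 fell (60%, against 33.5% of all tested genes) and 2 did not pass. The 60% called is close to the 66.9% called over all tested genes. *SOX4* changed by -1.75 ± 0.06, *FOXC1* by -0.41 ± 0.10 and *TCF3*, the gene of E47, by -0.18 ± 0.06; *TCF3* did not pass without cyclosporine A replicate 1 or vehicle replicate 3 (edgeR adjusted p = 0.0664 and 0.105). *TCF4* had a log2 fold change of -0.52 ± 0.27 and did not pass, though it passed without cyclosporine A replicate 3 or vehicle replicate 2 (edgeR adjusted p = 0.0264 and 0.0427). Of 14 epithelial transcription factors, 6 were tested, 4 higher (66.7%, against 33.3% of all tested genes) and 2 lower (33.3%, against 33.5%). *ELF3*, an epithelial ETS factor, had 48.7 ± 9.66 CPM with cyclosporine A and 248 ± 6.99 CPM with vehicle (SD, n = 4 each). *KLF4* rose by 2.00 ± 0.26, at 6 to 37 counts per library, and *PAX8* by 0.19 ± 0.06.

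Partners and turnover factors of the SNAI and ZEB proteins were listed next. Of 13 corepressors, all tested, 5 fell, 3 rose and 5 did not pass; the 61.5% called is close to the 66.9% called over all tested genes. *EZH2*, a histone methyltransferase, changed by -1.10 ± 0.07, *LOXL2* by -0.62 ± 0.06, the deacetylase gene *HDAC1* by -0.55 ± 0.06 and *RCOR1* by 0.55 ± 0.07. Of 16 tested genes for kinases and ubiquitin factors linked to these proteins, 12 rose (75%, against 33.3% of all tested genes), 1 fell and 3 did not pass, with a median log2 fold change of 0.29. *LATS2* (0.92 ± 0.07), *PAK1* (0.75 ± 0.08), *GSK3B*, whose kinase marks SNAIL for degradation (0.68 ± 0.07), and *CSNK1A1* (0.65 ± 0.06) rose.

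Among listed genes of signals upstream of EMT, inhibitors included, 7 of 20 tested genes rose, 7 fell and 6 did not pass. The 35% in each direction is close to the 33.3% that rose and 33.5% that fell over all tested genes. *TGFB2*, a TGF-beta ligand, had 157 ± 11.0 CPM with cyclosporine A and 540 ± 40.5 CPM with vehicle (SD, n = 4 each). The receptor *TGFBR2* changed by -1.39 ± 0.07 and *SMAD3*, which carries the signal to the nucleus, by -1.38 ± 0.06. *HES1*, a Notch target, had 64.2 ± 10.9 CPM with cyclosporine A and 4.84 ± 0.768 CPM with vehicle (SD, n = 4 each), a log2 fold change of 3.71 ± 0.13.

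Few other filament genes were present. Of 22 other keratins 3 were tested: *KRT10* rose (0.70 ± 0.10), *KRT80* fell (-0.45 ± 0.07) and *KRT15* had a log2 fold change of 0.18 ± 0.24 and did not pass. The 66.7% called is close to the 66.9% called over all tested genes. Of 7 tested filament genes of other types, 2 rose, 3 fell and 2 did not pass; 71.4% were called, against 66.9% of all tested genes. The lamin genes parted, with *LMNA* higher (318 ± 22.4 CPM with cyclosporine A and 181 ± 6.98 CPM with vehicle) and *LMNB1* lower (35.6 ± 5.01 CPM with cyclosporine A and 89.0 ± 4.47 CPM with vehicle; SD, n = 4 each). *NES* (nestin, -0.53 ± 0.06) and *SYNM* (synemin, -0.86 ± 0.11) fell. Among 14 tested genes listed under filament linkers and desmosomes, not all of them known anchors, 7 fell (50%, against 33.5% of all tested genes). Of the rest, 1 rose (*DSP*, given above) and 6 did not pass. *PPL*, periplakin, changed by -1.64 ± 0.13, *JUP*, plakoglobin, by -0.79 ± 0.07, the keratin-binding *TCHP* by -0.72 ± 0.10 and the desmosomal cadherin *DSG2* by -0.37 ± 0.06.

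**Figure D4:**
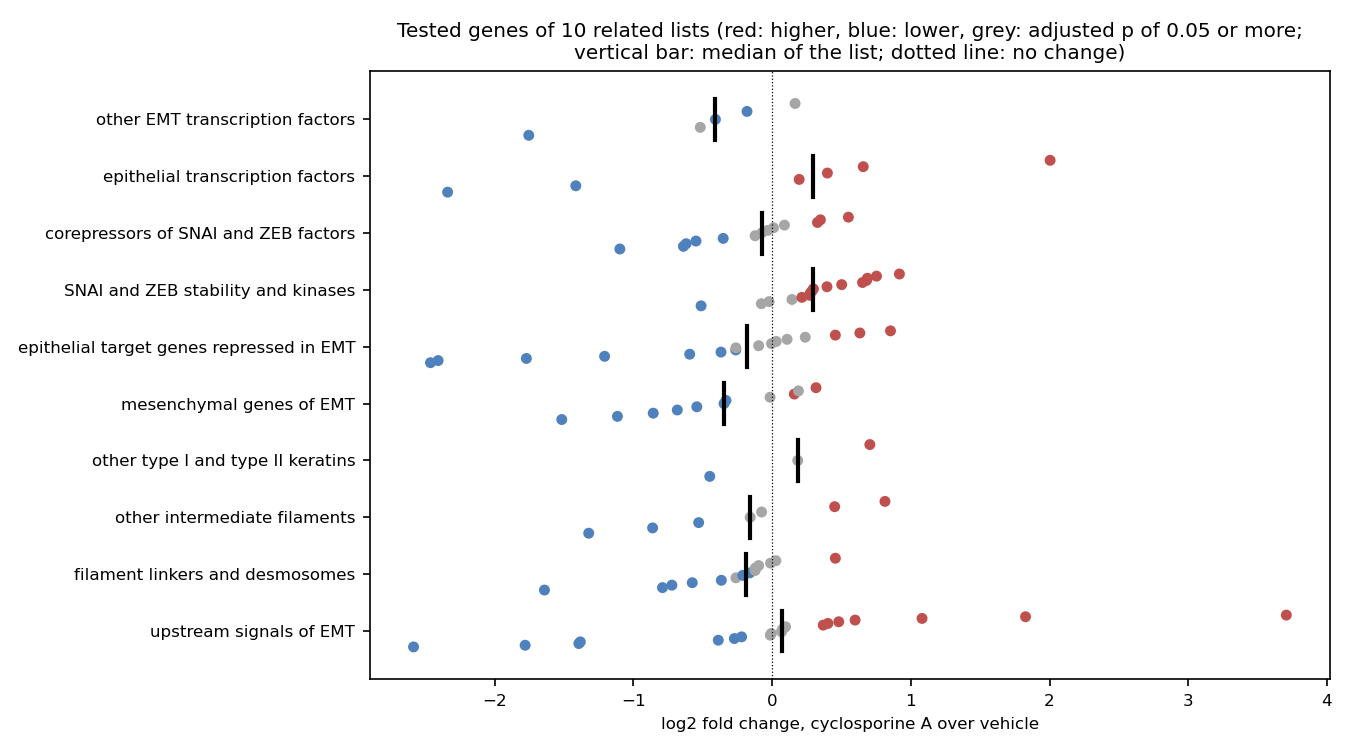
Log2 fold change (horizontal axis, cyclosporine A over vehicle) of every tested gene in 10 related lists (rows), red for higher, blue for lower and grey for not passed, with a vertical bar at each list's median. The medians run from -0.41 for the other EMT transcription factors to 0.30 for the epithelial transcription factors, and 9 of the 10 lists hold genes that rose as well as genes that fell.

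RefSeq promoter windows (GRCh38.p14, 250 bases before to 50 after a transcript start) were at hand for 4 of the 10 genes, in 10 windows. The E-box letters CACCTG or CAGGTG, which are the same motif on opposite strands, were found in 2 of the 7 windows of *ZEB1* and in none of those of *ZEB2*, *VIM* and *KRT8*; 20.6% of all 35116 windows held them. The *ZEB1* window with 3 matches, chr10:31318966-31319265 on the plus strand, is shown because SNAI and ZEB proteins bind this motif and *ZEB1* was one of the genes that rose. Capitals mark the E-boxes, which begin at -242, -85 and 33 from the start base, counted as 0.
ZEB1 promoter: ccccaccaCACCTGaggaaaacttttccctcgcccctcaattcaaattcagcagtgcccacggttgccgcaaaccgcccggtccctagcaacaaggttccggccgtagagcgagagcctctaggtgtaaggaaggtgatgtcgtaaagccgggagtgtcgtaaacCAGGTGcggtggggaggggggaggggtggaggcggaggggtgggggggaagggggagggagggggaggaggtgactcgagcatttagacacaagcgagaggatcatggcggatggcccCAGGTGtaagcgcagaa
A match describes the sequence and is not a measured binding site.

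The best-known microRNA regulators of these genes are the miR-200 family and miR-205, which repress *ZEB1* and *ZEB2*, and the miR-34 and miR-30 families, which repress *SNAI1*. The mature sequences below are from RefSeq (GRCh38.p14), 5′ to 3′, with the seed, positions 2 to 8, in capitals; they are shown because the seed groups the family members that can share target sites.
hsa-miR-200b-3p: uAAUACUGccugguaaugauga
hsa-miR-200c-3p: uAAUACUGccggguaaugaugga
hsa-miR-429: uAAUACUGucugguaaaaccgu
hsa-miR-200a-3p: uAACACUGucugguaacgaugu
hsa-miR-141-3p: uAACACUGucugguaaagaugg
hsa-miR-205-5p: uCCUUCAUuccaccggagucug
hsa-miR-34a-5p: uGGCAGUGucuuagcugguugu
hsa-miR-30a-5p: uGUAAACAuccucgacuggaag
hsa-miR-30c-5p: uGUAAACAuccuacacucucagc
hsa-miR-30e-5p: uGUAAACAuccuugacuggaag
The miR-200 family has a pair of seeds, AAUACUG and AACACUG, which differ at 1 base, and the miR-30 members shown share the seed GUAAACA.

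HK-2 cells held the miR-200 members of the chromosome 1 cluster at high levels under both treatments, and those of the chromosome 12 cluster at low levels. hsa-miR-200b-3p had 5993, 6593, 7073 and 7856 CPM with cyclosporine A and 8124, 6934, 8728 and 8067 CPM with vehicle. The groups overlapped, and the log2 fold change was -0.21 ± 0.11 (edgeR adjusted p = 0.248). hsa-miR-200a-3p had 4063 ± 393 CPM with cyclosporine A and 3926 ± 273 CPM with vehicle, and hsa-miR-429 961 ± 97.6 CPM with cyclosporine A and 1109 ± 144 CPM with vehicle (SD, n = 4 each). From chromosome 12, hsa-miR-200c-3p had 19.4 ± 0.555 CPM with cyclosporine A and 19.1 ± 1.87 CPM with vehicle, and hsa-miR-141-3p 2.27 ± 0.379 CPM with cyclosporine A and 1.61 ± 0.266 CPM with vehicle (SD, n = 4 each). hsa-miR-205-5p had 7989 ± 788 CPM with cyclosporine A and 9606 ± 951 CPM with vehicle (SD, n = 4 each; log2 fold change -0.27 ± 0.11, edgeR adjusted p = 0.138). No miRNA of the ZEB group passed the test in the fit over 470 miRNAs, although *ZEB1* and *ZEB2* mRNA rose.

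Of the 20 listed miRNAs, 16 were tested and 1 was called, hsa-miR-10b-5p, which TWIST1 is known to induce; 11.3% of the 470 tested miRNAs were called, 4.89% as higher and 6.38% as lower. Its level was 888, 900, 1078 and 1102 CPM with cyclosporine A and 1254, 1261, 1377 and 1290 CPM with vehicle. The cyclosporine A libraries all lay below the vehicle libraries, with a log2 fold change of -0.39 ± 0.11 (edgeR adjusted p = 0.0319). The call was lost when any 1 library other than cyclosporine A replicate 4 was left out (edgeR adjusted p up to 0.133) and with scaling to library totals (edgeR adjusted p = 0.0720), and without the filter on low counts (edgeR adjusted p = 0.0650). The authors' deposited table gave this miRNA an adjusted p of 0.00865.

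Of the miR-30 family, hsa-miR-30a-5p was the most abundant of the listed miRNAs, at 81679 ± 11538 CPM with cyclosporine A and 84856 ± 6162 CPM with vehicle (SD, n = 4 each). hsa-miR-30d-5p had 10114, 8841, 11839 and 10994 CPM with cyclosporine A and 13079, 13146, 13802 and 12405 CPM with vehicle, groups that did not overlap. Its log2 fold change of -0.33 ± 0.11 had an edgeR adjusted p = 0.0585; it passed with RLE size factors (edgeR adjusted p = 0.0269) and with DESeq2 (adjusted p = 0.0219). The SNAI1-linked hsa-miR-34a-5p, at 55.6 ± 14.6 CPM with cyclosporine A and 73.4 ± 29.5 CPM with vehicle (SD, n = 4 each), and the SNAI2-linked hsa-miR-203a-3p, at 64.4 ± 6.83 CPM with cyclosporine A and 69.1 ± 8.73 CPM with vehicle (SD, n = 4 each), did not pass. hsa-miR-30b-5p had 232 ± 63.1 CPM with cyclosporine A and 323 ± 155 CPM with vehicle (SD, n = 4 each); its log2 fold change of -0.48 ± 0.24 did not pass (edgeR adjusted p = 0.233), though it passed without the filter on low counts (edgeR adjusted p = 0.0164). The other tested members hsa-miR-30c-5p and hsa-miR-30e-5p, with hsa-miR-9-5p and hsa-miR-378a-3p, had log2 fold changes between -0.11 and 0.07 and did not pass. The groups were apart for 3 of the 16 tested miRNAs, against 16.2% of all tested miRNAs. hsa-miR-34b-5p, hsa-miR-34c-5p, hsa-miR-153-3p and hsa-miR-124-3p were too low to test.

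**Figure D5:**
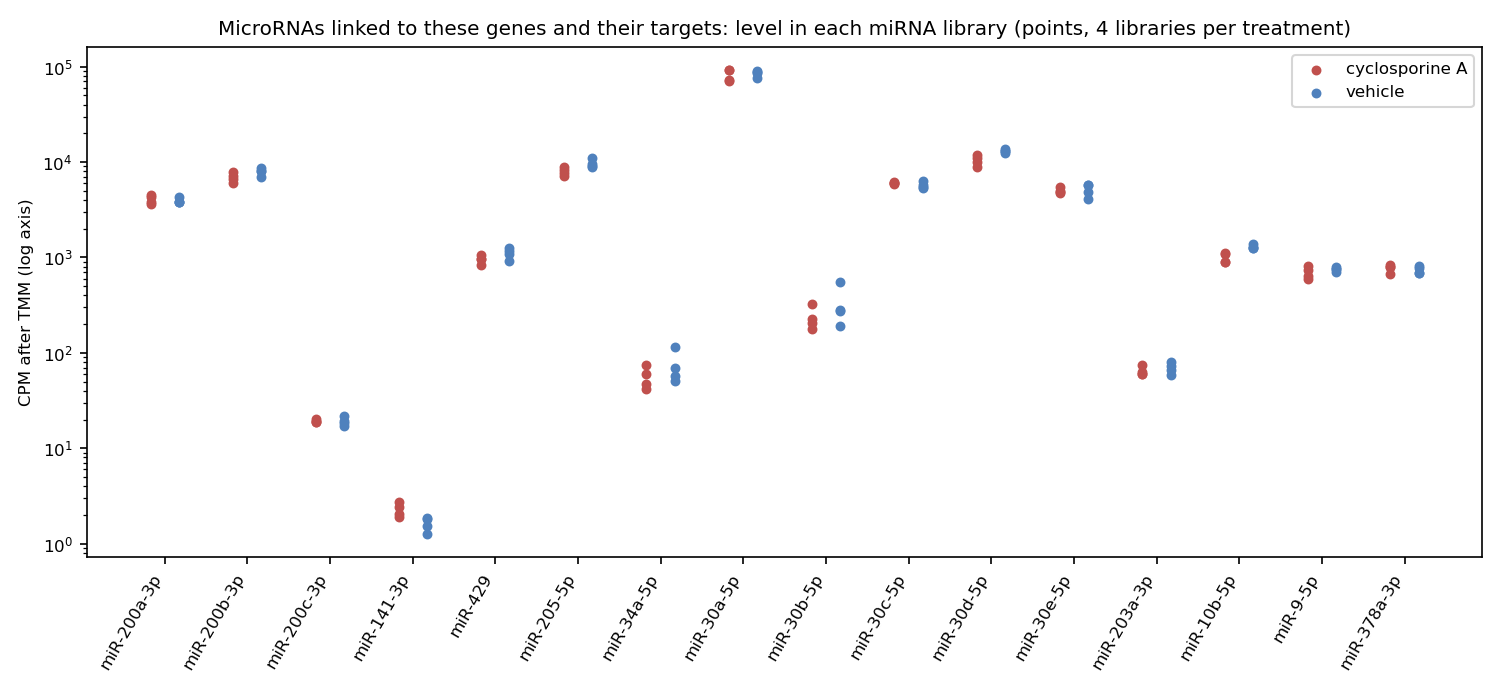
Level of the 16 tested miRNAs in CPM (vertical axis, log scale) in the 4 cyclosporine A (red) and 4 vehicle (blue) libraries. hsa-miR-200b-3p, hsa-miR-200a-3p and hsa-miR-205-5p lie between 3633 and 10979 CPM, hsa-miR-200c-3p and hsa-miR-141-3p at 21.6 CPM or less, and most of the paired columns overlap.

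The PAR-CLIP lists placed Argonaute clusters in some of these genes. The AGO2 list from cyclosporine A cells held 36812 clusters, 8 of them annotated to 5 of the 10 genes; the AGO2 list from vehicle cells held 56985, 15 of them annotated to 5 of the 10 genes; and the list for all Argonaute proteins held 19306, with 4 in 3 of the genes. A cluster annotated to a gene need not lie on the gene's strand. Every *KRT8* cluster, and some *ZEB1* and *ZEB2* clusters of the AGO2 lists, lay on the opposite strand. For *KRT7* and *SNAI2* the gene's strand was not at hand. These counts therefore do not give the number of clusters on the RNAs of these genes. Each treatment has 1 list for its 2 samples, so there is no replicate check, and the sources used here do not give the filters behind the lists. A *KRT8* intron cluster of the vehicle list, looked at after the data were seen, has a sequence that resembles bacterial ribosomal RNA; no alignment was run, and without it the vehicle list has 14 clusters in these genes, 11 of them intronic. Most of these clusters were intronic, 7 of 8 with cyclosporine A and 12 of 15 with vehicle. The intron share over all clusters and the number of clusters in other genes were not computed, so neither is a trait of these genes. No list annotated a cluster to *SNAI1*, *TWIST1*, *VIM*, *KRT18* or *KRT19*. Clusters on the strand of *VIM* that the AGO2 lists name *VIM-AS1* are given below. The cluster with the highest score in these genes lay in an intron of *ZEB2* on the gene's strand. It was at chr2:145233148-145233169 (hg19) with the authors' score of 1081 in the cyclosporine A list, at chr2:145233147-145233169 with a score of 432 in the vehicle list, and at chr2:145233148-145233170 with a score of 158 in the list for all Argonaute proteins. A *KRT8* intron position, chr12:53337857-53337878 on the strand opposite to *KRT8*, was likewise in both AGO2 lists, and a position that ends 1 base earlier was in the third. Scores of different lists are not on a known common scale.

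No list held a cluster in the 3′ UTR of *ZEB1* or *ZEB2*, where the known miR-200 sites lie. In the AGO2 lists, 1.44% of the clusters from cyclosporine A cells and 1.31% of those from vehicle cells were annotated to a 3′ UTR. None of the 530 such clusters with cyclosporine A held the site letters of either miR-200 seed, CAGTATT or CAGTGTT (95% Wilson upper bound 0.720%), and none of the 748 with vehicle did (upper bound 0.511%). The miR-205 site, ATGAAGG, was in 1 of the 530 clusters with cyclosporine A (0.189%, 95% Wilson interval 0.0333% to 1.06%) and in 6 of the 748 with vehicle (0.802%, interval 0.368% to 1.74%). These intervals cover counting error within a list only, so they do not compare the treatments. Clusters were counted whatever their strand. The miR-30 site, TGTTTAC, was in 0 of the 530 clusters with cyclosporine A and in 1 of the 748 with vehicle. Yet hsa-miR-30a-5p was the most abundant of the listed miRNAs. A site absent from these lists is therefore not shown to be unused. Within the clusters of the 10 genes, 1 match to a searched seed was found, for the nearly absent hsa-miR-34b-5p. It lay in a vehicle cluster on the strand opposite to *ZEB1*. The seeds of hsa-miR-10b-5p and hsa-miR-124-3p were not searched.

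The *KRT7* 3′ UTR cluster and a pair of clusters at the *VIM* locus are shown as examples of sequence that AGO2 was crosslinked near. They are in lower case because no searched seed matches. *KRT7* had a 3′ UTR cluster at chr12:52642535-52642557 (hg19, plus strand, score 38, vehicle list). At the *VIM* locus the lists name the antisense gene *VIM-AS1*, which RefSeq places on the minus strand, for a pair of plus strand clusters. RefSeq places *VIM* itself on the plus strand, so these clusters lie on the strand of *VIM* and opposite to *VIM-AS1*. The label *VIM-AS1* below is the lists' own. The clusters were at chr10:17271723-17271754 with cyclosporine A (score 77) and chr10:17271679-17271712 with vehicle (score 45), both hg19. They were not reassigned to *VIM* and were not counted among the clusters of the 10 genes.
KRT7 vehicle: ccgcgactgagccgcctcccacc
VIM-AS1 cyclosporine A: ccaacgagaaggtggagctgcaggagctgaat
VIM-AS1 vehicle: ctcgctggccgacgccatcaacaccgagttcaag
*SNAI2* had a 3′ UTR cluster in the cyclosporine A list (score 48) and a 5′ UTR cluster in the vehicle list (score 46). A cluster that held a miR-205 site and belonged to a gene of the related lists was annotated to the 3′ UTR of *TCHP*, at chr12:110355726-110355746 (hg19, minus strand, opposite to *TCHP*, which RefSeq places on the plus strand), with a score of 118 in the cyclosporine A list and 604 in the vehicle list; capitals mark the site.
TCHP both lists: gATGAAGGacgtggtttgcag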

How the data were processed

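Whole-number counts, by gene symbol for mRNA and by mature name for miRNA, were deposited by the authors. The submitters' processing notes name build hg19 and, with no role or setting, HTSeq, TopHat, Bowtie, cutadapt, DESeq2 and CASAVA 1.8.2. The authors' deposited tables of log2 fold changes, standard errors and test statistics (scores), mean normalized counts (a signal) and p-values were used only where named. PAR-CLIP lists give the authors' cluster score, of a unit the sources used here do not give; starts were written 1-based.

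Tests used edgeR 4.0.16 under R 4.3.3, with filterByExpr, TMM and a quasi-likelihood fit of group alone, over all features, with Benjamini-Hochberg adjustment; SEs are implied by the F statistic. Alternatives were RLE factors, library totals, no filter, DESeq2 1.42.0, limma 3.58.1 voom, a replicate block, and leaving out each library. On simulated counts for 12855 genes, 51 of 67 changes of 0.5, 62 of 67 of 1 and 66 of 66 of 2 (log2) were recovered; for 470 miRNAs, 16 of 39, 30 of 39 and 39 of 39 were. Total counts were 6664231 to 9184278 per miRNA library; intervals cover counting error only. Sequences of the list for all Argonaute proteins were left out, since only 2692 of 19306 were as long as their interval.

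Named genes were the 10 genes, the 4 with the smallest p-values in each related list, *CDH1*, *CDH2*, *FN1*, *ACTA2* and *TGFB2*, every listed miRNA, and the genes most like each of the 10; a few that this rule names are not reported here. Members and lists were chosen with earlier results of these data known.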

Additional observations from a re-analysis of the deposited data

Results flagged for a closer look

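A group of 4 libraries was marked where 1 library's gap to its nearest neighbour passed Dixon's 95% critical value as a share of the group's range; chance marks about 1 in 20 groups, and 10 of the 130 examined were marked. Among the filament measures, the *KRT8* to *KRT18* ratio of vehicle replicate 2 was 2.14, against 1.96 to 1.98 in the other vehicle libraries; no single one of the 10 genes was marked.

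Among the related genes, with cyclosporine A *LATS2* was low in replicate 3 (82.4 CPM, the others 96.5 to 99.0) and *SMAD3* high in replicate 3 (131 CPM, the others 121 to 122). *FN1* was low (36961 CPM, the others 40857 to 41404) and *JUP* high (85.7 CPM, the others 76.7 to 77.2) in cyclosporine A replicate 4. With vehicle, *CDH2* (226 CPM, the others 194 to 198) and *TGFB2* (601 CPM, the others 515 to 525) were high in replicate 1, and *TCF3* in replicate 3 (170 CPM, the others 145 to 147). *LLGL2* (8.81 CPM, the others 7.52 to 7.62) and hsa-miR-200a-3p (4335 CPM, the others 3770 to 3811) were high in vehicle replicate 4.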

How the results depend on the processing

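Of 140 recomputed values of the 10 genes, 136 kept their direction and their side of the threshold. The exceptions were *TWIST1*, which ranged from -0.41 to -0.17 when 1 library was left out and passed once, and *KRT7*, which ranged from -0.17 to 0.10. *FN1*, not called, ranged from -0.0418 to 0.0267. The count of called genes among the 10 was 8 to 9. The miRNA results were less stable. Called regulators numbered 1, but 2 with RLE factors, 2 with DESeq2, 2 with voom, 0 with library totals, 2 without hsa-miR-21-5p in the totals, and 0 to 1 with 1 library left out. Calls over all miRNAs numbered 53, but 32 with library totals and 29 to 58 with 1 library left out. hsa-miR-30a-5p turned to 0.0030 without hsa-miR-21-5p, and ranged from -0.0882 to 0.0233 with 1 library left out; hsa-miR-30e-5p turned to 0.0097 with library totals and 0.0383 without hsa-miR-21-5p, and ranged from -0.0974 to 0.0636. The cause was not tested. The median of all mRNA fold changes moved by less than 0.1 under every scaling. With the replicate number as a block, 8 of the 10 genes were called, and 4 regulators and 92 miRNAs; the added regulators were hsa-miR-34a-5p (-0.36, edgeR adjusted p = 0.0340), hsa-miR-30b-5p (-0.40, edgeR adjusted p = 0.00934) and hsa-miR-30d-5p (-0.33, edgeR adjusted p = 0.00964). The labels do not tie same-numbered libraries together. Their deviations correlated at -0.144, 0.011, -0.090 and 0.083 for mRNA numbers 1 to 4, and at 0.045, 0.535, 0.009 and 0.221 for miRNA, where numbers 2 and 4 correlated best with their own number and 1 and 3 did not; this is a hint from the data, not the design. Clusters in the 10 genes numbered 3 (cyclosporine A), 9 (vehicle) and 2 (all Argonaute) at or above the median score of their list, and 6-base matches raised the seed matches to 2 with vehicle. In the simulation for miRNA, 16 of 39 changes of 0.5 were recovered, which limits what a miRNA that did not pass can show.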
